A study of Homo sapiens with 20 samples.

Results

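SSX1, SSX2, SSX4, PAGE2, PAGE2B, PAGE5, CTAG1B and CTAG2 are X-linked cancer-testis genes, and their mRNA was followed here in 6 human lung cancer cell lines with and without the DNA methyltransferase inhibitor decitabine (DAC). The 8 genes, of 36076 rows in the expression table, were chosen by symbol because earlier results of the same libraries showed most of them silent without the drug and present after it. Their difference between DAC and Mock is therefore a description and carries no test. With silence set at 3 reads or fewer, it held for SSX1 in all 6 lines, for SSX2, SSX4, PAGE2 and PAGE5 outside H1299, and for PAGE2B outside H1299 and H1792. It did not hold for CTAG2, which was at 135 FPKM or more in Mock-treated CL1-0, CL1-5 and H1299 cells.

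Cancer-testis genes are expressed in the germ line, are silent in most adult tissues and reappear in some tumours. Methylation of their promoters is a well-known way in which they are kept silent, and DAC, a cytidine analogue that is built into DNA and traps the methyltransferases, is known to reactivate many of them. SSX proteins are nuclear repressors best known as the fusion partners of SS18 in synovial sarcoma. PAGE genes belong to the GAGE and XAGE superfamily, whose products have no settled function. CTAG1A and CTAG1B are twin genes that both encode NY-ESO-1, and CTAG2 encodes the related antigen LAGE-1. NY-ESO-1 is a frequent target of tumour vaccines and engineered T cells.

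A549, CL1-0, CL1-5, PC9, H1299 and H1792 are established human lung cancer lines, and CL1-5 was derived from CL1-0 by selection for invasiveness, so this pair is not independent. Each line was kept in RPMI-1640 medium with serum and received either PBS (Mock) or 100 nM DAC for 72 h, after which the drug was withdrawn for 3 days. mRNA-seq covered all 6 lines (12 libraries) and Omni-ATAC-seq, which maps open chromatin, covered A549, H1299, CL1-5 and PC9 (8 libraries). There was 1 library for each line and treatment, so no value has a replicate of its own, and the spread given below is that between lines. In these cultures fewer expressing cells and less RNA per cell cannot be told apart.

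The libraries held 22234485 to 25303899 reads on genes outside H1299, and 59735913 (Mock) and 52634234 (DAC) in H1299. The H1299 libraries stand apart in a second way, since 85.5% (Mock) and 81.9% (DAC) of their genes with 1 to 20 reads had an even number of them, against 39.2% to 41.6% elsewhere. Their reads are therefore not independent counts, and counting intervals for H1299 are too narrow. CDKN2A, known to be deleted in A549, was at 0 in both A549 libraries. It was also at 0 in both CL1-5 libraries, so it does not set A549 apart. In CL1-0, from which CL1-5 was derived, it was at 9.97 FPKM in Mock and 7.12 after DAC. The mean differences of the SSX and PAGE members are given with and without H1299. Leukocyte markers were near 0: the highest count of any of PTPRC, CD3D, CD3E and CD2 in a library was 18 reads. Keratins KRT8 and KRT18 were at 0.154 and 0.119 FPKM in CL1-0 Mock and at 37.8 FPKM or more (KRT8) and 24.6 FPKM or more (KRT18) in the Mock libraries of the other lines. EPCAM and KRT19 were low in more lines. In Mock they were at 0.151 and 0 FPKM in CL1-0, 0.132 and 0.758 in CL1-5, and 0.0555 and 0.0150 in H1299. Both were highest in PC9 Mock, at 235 and 526 FPKM. Of the stromal and endothelial markers COL1A2, COL3A1 and CDH5, the highest level was 8.86 FPKM (COL3A1, H1792 DAC). None of the 4 epithelial, 1 leukocyte and 3 stromal and endothelial genes tested with limma passed an adjusted p of 0.05, and 1 of each list did at an unadjusted one.

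In the ATAC data, peak lists given to CL1-5 samples carry peaks named after PC9, and the reverse. Of 40 genes with at least 500 reads in both PC9 mRNA libraries and at most 3 in both CL1-5 ones, the Mock ATAC library labelled CL1-5 had a peak within 1000 bp of the start of 35, and the library labelled PC9 of 10. For 27 genes with the opposite mRNA pattern, the library labelled CL1-5 had 7 and the library labelled PC9 had 22. The chromatin of these libraries thus went against their labels, and each is named below as "the library labelled" with the line GEO gives it. By the same read limits, the H1299 Mock ATAC library had a peak at 22 of 82 genes expressed in H1299 and silent in A549, and A549 at 8. Of 97 genes expressed in H1299 and silent in H1792, H1299 Mock had a peak at 34, and of 38 with the opposite pattern at 10. This separation is weaker than for CL1-5 and PC9, and H1792 has no ATAC library.

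The 250 bases before the RefSeq start of the SSX and PAGE members are printed because DAC blocks the upkeep of methylation at CG pairs, which are shown in capitals. RefSeq promoters were at hand for 6 of the 8 members. The bases were taken from the RefSeq table (GRCh38.p14) and matched letter for letter to chromosome X of GRCh37, the build of the peak lists.
SSX1, chrX:48114577-48114826, plus strand: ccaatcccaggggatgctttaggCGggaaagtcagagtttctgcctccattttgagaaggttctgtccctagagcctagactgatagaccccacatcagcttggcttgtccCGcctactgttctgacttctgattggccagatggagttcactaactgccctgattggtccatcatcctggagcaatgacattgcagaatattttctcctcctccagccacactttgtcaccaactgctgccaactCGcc
SSX2, chrX:52736229-52736478, minus strand: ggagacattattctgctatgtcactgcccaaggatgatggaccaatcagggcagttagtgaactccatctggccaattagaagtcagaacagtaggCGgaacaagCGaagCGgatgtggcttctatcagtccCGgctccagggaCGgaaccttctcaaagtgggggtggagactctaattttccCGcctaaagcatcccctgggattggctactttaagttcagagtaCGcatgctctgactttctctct
SSX4, chrX:48242730-48242979, plus strand: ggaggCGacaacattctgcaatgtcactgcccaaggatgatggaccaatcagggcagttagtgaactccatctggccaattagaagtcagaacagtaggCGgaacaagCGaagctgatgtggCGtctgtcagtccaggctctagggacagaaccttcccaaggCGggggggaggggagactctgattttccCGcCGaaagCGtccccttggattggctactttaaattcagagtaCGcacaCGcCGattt
PAGE2, chrX:55115201-55115450, plus strand: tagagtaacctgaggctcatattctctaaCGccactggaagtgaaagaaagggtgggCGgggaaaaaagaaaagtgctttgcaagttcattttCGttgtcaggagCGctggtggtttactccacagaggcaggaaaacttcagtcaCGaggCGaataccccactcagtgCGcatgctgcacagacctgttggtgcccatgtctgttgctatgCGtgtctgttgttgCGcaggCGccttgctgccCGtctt
PAGE2B, chrX:55101213-55101462, plus strand: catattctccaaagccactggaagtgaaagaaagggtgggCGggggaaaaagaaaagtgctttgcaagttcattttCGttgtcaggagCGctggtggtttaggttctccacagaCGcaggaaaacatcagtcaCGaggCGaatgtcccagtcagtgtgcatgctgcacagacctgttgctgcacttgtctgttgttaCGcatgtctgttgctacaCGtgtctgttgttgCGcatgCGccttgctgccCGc
PAGE5, chrX:55246529-55246778, plus strand: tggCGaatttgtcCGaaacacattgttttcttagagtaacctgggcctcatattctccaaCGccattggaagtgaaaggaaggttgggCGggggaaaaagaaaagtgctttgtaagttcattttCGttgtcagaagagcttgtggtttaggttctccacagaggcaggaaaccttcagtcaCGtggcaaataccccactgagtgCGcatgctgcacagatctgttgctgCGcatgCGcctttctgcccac

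These promoters hold an intermediate to low number of CG pairs. SSX1 has 3, SSX2 has 7, SSX4 has 11, PAGE2 and PAGE2B have 11 each and PAGE5 has 9, while the median of 35114 RefSeq promoters cut to the same length is 11, with quartiles of 3 and 23. The ratio of observed to expected CG pairs ran from 0.189 (SSX1) to 0.670 (PAGE2B), against a median of 0.558 over all promoters. The letters GGGCGG, the core of the Sp1 box, were searched on both strands and occurred 1 time in each of PAGE2, PAGE2B and PAGE5 and in none of the SSX promoters, and 42.6% of all promoters hold them. The letters CCGGAA, an ETS factor core, were in none of the 6 promoters and in 14.5% of all. These are matches of letters, and no binding was measured.

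The sequences also show how alike the members are. The SSX2 promoter matched chromosome X at 2 places, its own and that of SSX2B, and the pair was identical over all 250 bases. PAGE2 and PAGE2B were 94.3% identical over 230 aligned bases, and PAGE2 and PAGE5 were 89.6% identical over 211. SSX2 and SSX4 were 90.5% identical over 243 aligned bases. SSX1 aligned poorly to either in the direction of its gene, with no shared run longer than 9 bases, but its window read on the other strand was 89.0% identical to SSX2 over 209 bases and 89.6% identical to SSX4 over 211, with a shared run of 47 bases. The block before the SSX1 start is thus inverted relative to that before SSX2 and SSX4.

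The 8 genes lie at 4 places on chromosome X (GRCh37, GENCODE genes). SSX1 (48114827 to 48126879, plus strand) and SSX4 (48242957 to 48252789, plus strand) are in one cluster, and SSX2 (52725946 to 52736228, minus strand) is in another. PAGE2B (55101463 to 55105342), PAGE2 (55115451 to 55119275) and PAGE5 (55246779 to 55250541) follow each other on the plus strand. CTAG1B (153845865 to 153847533) and CTAG2 (153880246 to 153881853) are on the minus strand near the end of the long arm.

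Which members were silent before DAC was asked with a floor of 3 reads, the count at or under which a gene is called silent. Reads were recovered from the deposited FPKM values (fragments scaled to transcript length and to library depth), all of which came out whole. Of the 48 combinations of member and line, 36 were silent in Mock. A549 had 8 of 8 members silent, PC9 and H1792 had 7, CL1-0 and CL1-5 had 6, and H1299 had 2. As background, 45.2% (CL1-5) to 52.4% (H1299) of all rows in the expression table were silent in Mock by this floor. The share of members was above this background in every line but H1299, where it was below. The members were picked with their silence known, so nothing is read from this. Just inside the floor, at 3 reads, were SSX1 in A549 and CL1-0, SSX4 in A549 and PAGE5 in CL1-0, and just outside it, at 4 reads, were SSX4 in H1299 and PAGE2B in H1792. The floor is stricter in the deeper H1299 libraries. For SSX4 in Mock, 3 reads are 0.0426 FPKM in H1299 and 0.08985 to 0.117 in the other lines. SSX4 was thus called silent in A549 at 0.114 FPKM and not silent in H1299 at 0.0568.

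Of those 36 silent combinations, 33 reached at least 10 reads after DAC in the same line. All 30 silent combinations of the 6 SSX and PAGE members did so, and the 3 that did not were CTAG1B in A549, H1299 and H1792. As background, the share of all genes silent in Mock that reached 10 reads was 7.22% in A549, 6.99% in H1299, 3.88% in PC9, 3.79% in H1792, 3.43% in CL1-0 and 2.73% in CL1-5. The members were picked for this behaviour, so nothing is read from the gap. Without H1299 the counts were 34 silent and 32 of them induced.

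SSX1 was close to absent before DAC in all 6 lines. Its Mock level was 0.108 FPKM in A549 and 0.0979 in CL1-0 (3 reads each), 0.0371 in PC9 and 0.0135 in H1299 (1 read each), and 0 in CL1-5 and H1792. From highest to lowest, the DAC level was 20.6 FPKM in H1299, 17.2 in A549, 10.5 in H1792, 6.85 in CL1-5, 4.14 in CL1-0 and 1.37 in PC9. The Mock and DAC groups did not overlap, H1299 and A549 being highest and PC9 lowest after DAC. The DAC level was 159.8-fold higher in A549 (95% counting interval 54.4 to 777), at least 80.4-fold in CL1-5 and at least 113-fold in H1792, where the bound sets 0 reads to the floor of 3 reads per library. The mean log2 difference, on the log2(FPKM + 0.1) scale, was 5.76 ± 1.54 (SD, n = 6 lines), and 5.41 without H1299.

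SSX2 reached the highest level of the SSX members after DAC and also varied most between lines. It had 0 or 1 read in Mock in 5 lines and 26 reads (0.296 FPKM) in H1299. Its DAC level was 48.4 FPKM in H1299, 28.0 in CL1-5, 24.9 in A549, 18.2 in H1792, 11.2 in CL1-0 and 0.450 in PC9. CL1-5 and A549 had overlapping intervals. PC9 was far below the others, with 16 reads and a counting interval of 0.257 to 0.731 FPKM, yet still above every Mock library. The difference from Mock was at least 389-fold in CL1-5 and at least 4.79-fold in PC9. The mean log2 difference was 6.46 ± 2.04 (SD, n = 6), and 6.36 without H1299.

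SSX4 had 0 to 4 reads in every Mock library, the highest level being 0.114 FPKM in A549. With DAC, it reached 30.7 FPKM in H1299, 13.8 in CL1-5, 10.8 in A549, 7.001 in H1792, 6.91 in CL1-0 and 1.23 in PC9. Again the groups did not overlap, and H1299 was highest and PC9 lowest. The intervals of H1792 and CL1-0 overlapped, so this pair has no order. The mean log2 difference was 5.95 ± 1.38 (SD, n = 6), and 5.61 without H1299.

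The PAGE members shared an exception that was faint in SSX2 (26 reads), since all 3 were expressed in H1299 before DAC. PAGE2 had 476 reads in H1299 Mock (12.6 FPKM), 1 read in H1792 and 0 in the other 4 lines. After DAC the level was 110.7 FPKM in H1299, 33.7 in H1792, 28.7 in A549, 5.72 in CL1-0, 5.69 in PC9 and 3.99 in CL1-5. H1299 stood far above the rest, and CL1-0, PC9 and CL1-5, whose neighbouring intervals overlapped, made up the low end. In H1299 the DAC level was 8.79-fold the Mock level (interval 7.99 to 9.69), against at least 135-fold in A549. The mean log2 difference was 6.01 ± 1.81 (SD, n = 6), and 6.59 without H1299.

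PAGE2B followed PAGE2 closely. It had 492 reads in H1299 Mock (16.97 FPKM), 4 in H1792 (0.318 FPKM), 1 in A549 and 0 in CL1-0, CL1-5 and PC9. DAC-treated cells had 152 FPKM in H1299, 46.3 in H1792, 41.6 in A549, 10.5 in CL1-0, 9.91 in CL1-5 and 6.82 in PC9. H1792 and A549, whose intervals overlapped, again lay between H1299 and the remaining lines. In H1299 the ratio of DAC to Mock was 8.98 (interval 8.18 to 9.88), and the mean log2 difference was 6.20 ± 1.58 (SD, n = 6) or 6.81 without H1299.

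PAGE5 had 232 reads in H1299 Mock (5.46 FPKM), 3 in CL1-0 (0.171 FPKM) and 0 in A549, CL1-5, PC9 and H1792. The level with DAC was 63.6 FPKM in H1299, 27.8 in H1792, 24.1 in A549, 5.27 in CL1-5, 4.32 in CL1-0 and 2.33 in PC9. H1299, H1792 and A549 again formed the upper group, and the intervals of H1792 and A549 overlapped. The DAC level was 11.6-fold higher in H1299 (interval 10.2 to 13.4) and at least 171-fold higher in H1792, and the mean log2 difference was 5.66 ± 1.98 (SD, n = 6) or 6.08 without H1299.

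After DAC the highest and lowest lines were much the same for the 6 SSX and PAGE members, while the order between them differed by family. Reads may be shared between alike rows, so these are not 6 separate rankings. H1299 ranked highest for all 6, A549 had rank 2 or 3 for all 6 and PC9 ranked lowest for 5 of 6. For PAGE2 CL1-5 was lowest, and for PAGE2 and PAGE2B the intervals of PC9 and CL1-5 overlapped, so this pair has no order there. CL1-5 had rank 2 for SSX2 and SSX4 but ranks 4 to 6 for the PAGE members, whereas H1792 had rank 2 for all 3 PAGE members and ranks 3 to 4 for the SSX members. The intervals of H1792 and A549 overlapped for all 3 PAGE members, as did those of CL1-5 and A549 for SSX2, so ranks 2 and 3 cannot be separated there.

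CTAG2 behaved differently. It was at 0 reads in Mock in A549 and H1792 only, and its level in the others was 286 FPKM in H1299, 173 in CL1-0, 135 in CL1-5 and 19.0 in PC9. With DAC the order was 215 FPKM in H1299, 120.3 in CL1-5, 112 in CL1-0, 45.9 in PC9, 18.4 in A549 and 11.9 in H1792. It was thus higher after DAC in A549 (at least 130.2-fold), H1792 (at least 97.9-fold) and PC9 (2.41-fold, interval 2.15 to 2.72), and lower in CL1-0 (ratio 0.650, interval 0.620 to 0.680), CL1-5 (0.889, interval 0.846 to 0.933) and H1299 (0.751, interval 0.733 to 0.769). The ratios below 1 lie outside counting error, but with 1 library per treatment they have no replicate check. After DAC, H1792 was still below the Mock level of PC9, whose interval (17.2 to 21.02 FPKM) overlapped that of A549 after DAC (16.7 to 20.1). A549 and H1792 were both far below CL1-0, CL1-5 and H1299.

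CTAG1B, the member that names NY-ESO-1, carried almost none of its reads. It had 52 reads in Mock and 53 after DAC in CL1-0 (2.207 and 1.79 FPKM), 52 and 33 in CL1-5 (1.92 and 1.36 FPKM), 0 and 10 in PC9, 0 and 4 in H1792, 0 and 2 in A549, and 0 in both H1299 libraries. The ratio was 0.813 in CL1-0 (interval 0.544 to 1.22) and 0.708 in CL1-5 (interval 0.444 to 1.12), so no change was detectable there at this depth. The row of its twin CTAG1A held 51210 reads over the 10 libraries with at least 20 reads on the pair, against 206 on CTAG1B.

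Summed over CTAG1A and CTAG1B, NY-ESO-1 in Mock was 372 FPKM in H1299, 193 in CL1-0, 153 in CL1-5 and 8.43 in PC9. It was 0 in A549 and H1792. After DAC the sum was 265 FPKM in H1299, 116 in CL1-5, 112 in CL1-0, 36.6 in PC9, 15.5 in A549 and 10.2 in H1792. The same 3 lines went up and the same 3 went down as for CTAG2. The canonical transcripts of CTAG1A and CTAG2 are 94.2% identical over 759 aligned bases with a shared run of 163 bases, so these rows are not fully separate measurements. The CTAG1B row by itself does not show whether NY-ESO-1 was silent.

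**Figure D1:**
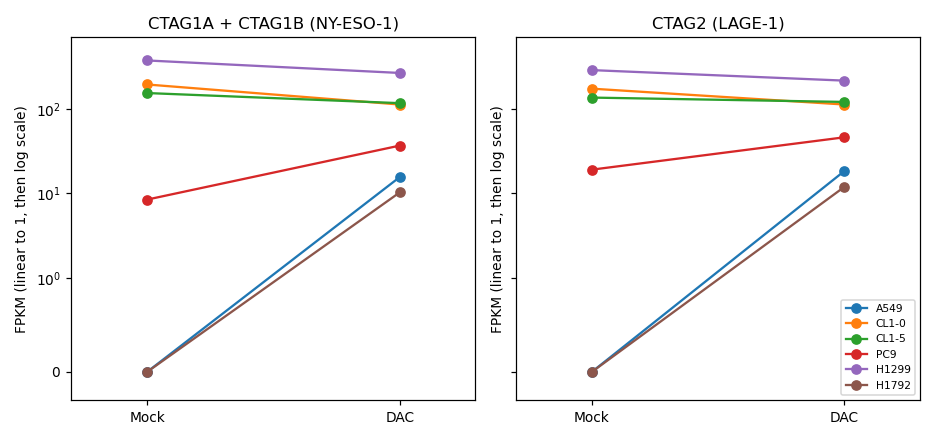
Level (FPKM, linear to 1 and then logarithmic) of NY-ESO-1, as the sum of CTAG1A and CTAG1B, and of CTAG2 in Mock and after DAC, with 1 line per cell line. A549 and H1792 start at 0 and reach 10.2 to 18.4 FPKM, while CL1-0, CL1-5 and H1299 start above 100 FPKM and end lower.

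The other near-identical pairs were divided between rows in different ways. SSX2 held a median of 98.6% of the reads of SSX2 and SSX2B over 6 libraries with at least 20 reads on the pair (range 97.5% to 100.0%), and SSX4 held 99.2% of those of SSX4 and SSX4B (98.3% to 100.0%). CTAG1B held a median of 1.16% (0.0% to 1.64%). PAGE2 held 48.6% of the reads of PAGE2 and PAGE2B over 7 libraries (34.4% to 52.1%). The canonical transcripts are identical over all 1281 aligned bases for SSX2 and SSX2B, over 1205 for SSX4 and SSX4B and over 759 for CTAG1A and CTAG1B, but 96.5% identical over 537 bases for PAGE2 and PAGE2B. How the counting placed reads that fit more than 1 copy is not given in the sources used here, so the levels of SSX2 and SSX4 stand for their pair, that of CTAG1B does not, and the division between PAGE2 and PAGE2B is uncertain.

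H1299 also stood apart in this respect. Both H1299 libraries had 0 reads on SSX2B, SSX4B and CTAG1B, although the H1299 DAC library had 3926 on SSX2, 1996 on SSX4 and 13888 on CTAG1A. In the other DAC libraries CTAG1B held 0.513% to 1.64% of the reads of its pair.

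**Figure D2:**
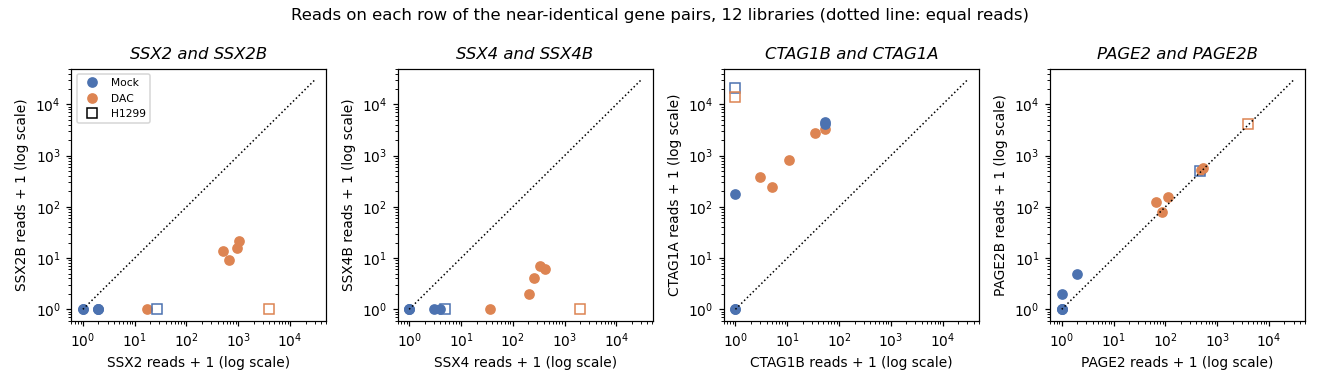
Reads plus 1 on both rows of each near-identical pair (log scales) in the 12 libraries, with H1299 as open squares and a dotted line of equal reads. Points lie near the line only for PAGE2 and PAGE2B, while SSX2, SSX4 and CTAG1A each carry nearly all reads of their pair.

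The remaining SSX rows were silent in Mock in all 6 lines, with 0 reads on SSX3, SSX5, SSX7 and SSX9P. After DAC, SSX3 was 30.2 FPKM in H1299, 4.54 in A549, 3.99 in CL1-5, 2.02 in H1792, 1.70 in CL1-0 and 0.369 in PC9. SSX5 ran from 0.0582 FPKM (PC9, 2 reads) to 1.14 (CL1-5) outside H1299 and was 27.2 in H1299. SSX7 ran from 0.132 (PC9) to 3.27 (CL1-5) outside H1299 and was 32.9 in H1299. SSX9P, a transcribed pseudogene, had 0 to 7 reads after DAC outside H1299 and 990 reads (22.8 FPKM) in H1299.

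The division of the summed SSX FPKM between rows after DAC was therefore different in H1299 from the other lines. The H1299 libraries are also those with mostly even read numbers and 0 reads on SSX2B and SSX4B. The part that read placement between alike SSX rows has in this was not tested. SSX1, SSX2 and SSX4 made up most of the summed SSX FPKM after DAC outside H1299, the other 6 SSX rows holding 12.2% (H1792) to 15.7% (CL1-5). In H1299 those other rows held 53.2% of 212.8 FPKM. The sum was 62.1 FPKM in A549, 57.7 in CL1-5, 40.7 in H1792, 25.5 in CL1-0 and 3.60 in PC9. In limma's test over the 5 lines without H1792, SSX3 had a log2 difference of 5.11 ± 0.74 (SE) with an adjusted p of 0.0837, SSX7 one of 4.61 ± 0.88 with 0.162, SSX5 one of 3.44 ± 0.96 with 0.278 and SSX9P one of 2.43 ± 1.05 with 0.406, so none passed the threshold of 0.05. With 0 reads in every Mock library, these rows entered the test only through their DAC values, SSX9P mostly through H1299. Their values in this test are therefore a description.

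**Figure D3:**
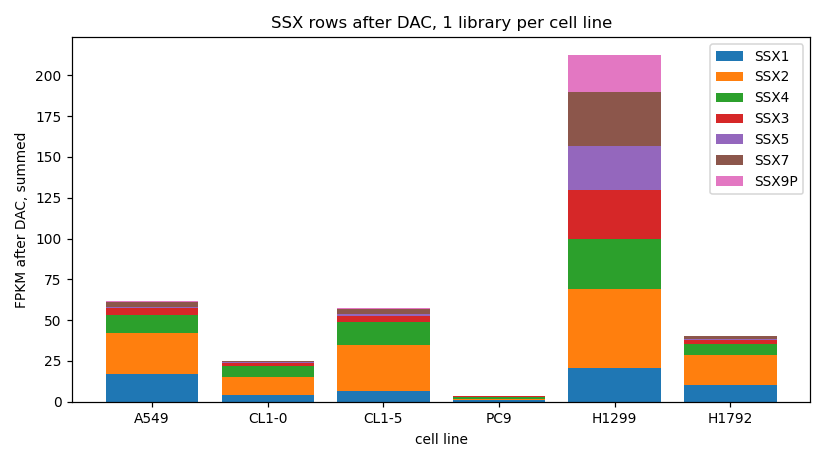
Summed FPKM of the SSX rows after DAC in each line, 1 library per bar, with SSX2B and SSX4B left out because they reach at most 0.384 and 0.193 FPKM. SSX1, SSX2 and SSX4 form most of each bar outside H1299, where SSX3, SSX5, SSX7 and SSX9P hold more than the members do.

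Of the other PAGE rows, only PAGE1 reached more than 28 reads. In Mock it was 4.16 FPKM in H1299, 0.362 in PC9, 0.191 in CL1-0, 0.140 in A549, 0.0555 in CL1-5 and 0 in H1792. With DAC it was 16.2 FPKM in H1299 and 9.15 in A549. CL1-0 (4.21 FPKM) and CL1-5 (3.96) followed with overlapping intervals, and PC9 had 1.62 and H1792 0.125 FPKM. H1792, in the upper group for PAGE2, PAGE2B and PAGE5, was thus lowest for PAGE1, with 2 reads. The log2 difference over the 5 lines was 3.54 ± 0.53 (SE) with an adjusted p of 0.0857 by limma. PAGE3 and PAGE4 had at most 1 read in Mock and at most 3 after DAC outside H1299, where they had 14 and 28.

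The same limma test across all 22603 genes with a mean of at least 0.1 FPKM called 27 higher after DAC and 0 lower at an adjusted p of 0.05, which is 0.119% higher, and 1825 were higher and 994 lower at an unadjusted p of 0.05. Of the 8 members 6 were among the 27, namely the SSX and PAGE members, and they were chosen on this contrast. Leaving out A549 or CL1-5 left 0 genes called, leaving out CL1-0 left 5 and no member, and without the block for cell line 10 genes and 2 members were called. Among 63 other X-linked cancer-testis genes tested, 1 was called higher and 0 lower, and 27 were higher at an unadjusted p of 0.05. Of the 63, 62 had a difference above 0, as did 13290 of the 22603 genes. Their median log2 difference was 1.60, against 0.07 over all genes tested. Rows with 0 reads in Mock, such as SSX3 and MAGEB1, passed the mean of at least 0.1 FPKM only through their DAC values. Their difference was therefore above 0 in advance, and the 62 and the median describe the 63 rows without testing them. These rows are not all separate measurements. CT47A1 to CT47A6 and CT47A8 to CT47A10 each had at most 20 reads and nearly the same difference, 0.0528 to 0.0809. The gene called was MAGEB2, an antigen of the MAGE family, at 6.33 ± 0.77 (SE) and an adjusted p of 0.0483, with a range of 0.0216 to 0.236 over the alternatives. It was higher in 5 of 5 lines, and leaving out any of the 5 lines ended the call.

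The GAGE and XAGE genes are relatives of the PAGE genes. Of their 15 rows 8 had at most 57 reads in any library, and the other 7 had over 100 in at least 1. Of 15 GAGE and XAGE rows tested none passed the threshold in limma's test, and 3 were higher at an unadjusted p of 0.05. GAGE2C, with the second largest mean difference of that list, was 2245 FPKM in CL1-0 Mock, 3495 in CL1-5 and 2852 in H1299, 0.443 in A549 and 0 in PC9 and H1792. Its DAC level was 612 FPKM in A549, 5.82 in PC9 and 13.4 in H1792, and 2473, 5528 and 3254 in CL1-0, CL1-5 and H1299. GAGE10 and GAGE2E, the other GAGE rows with the largest mean differences, were likewise at 541.5 FPKM or more in Mock in CL1-0, CL1-5 and H1299 and at 0.345 FPKM or less in the other lines. GAGE genes are near-identical copies too, so their division between rows is uncertain. Of the other X-linked genes, MAGEB1 was 0 in all 6 Mock libraries and 0.565 to 10.6 FPKM after DAC, and MAGEC2 was 0 to 1.11 FPKM in Mock and 0.166 (CL1-5) to 23.8 (PC9) after DAC.

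Genes whose level ran most like each family's over the 12 libraries were sought among 16669 genes with at least 10 reads in at least 3 libraries, by Pearson's r with log2 of the summed member FPKM plus 0.1. For the SSX members these were TEX11 (r = 0.976), a meiosis gene, MAEL (0.957), of the piRNA pathway, and TKTL1 (0.948), a transketolase-like gene. MAEL was at 0 FPKM in all 6 Mock libraries and 0.609 to 5.21 FPKM after DAC. For the PAGE members they were DCAF4L1 (0.967), IFFO1 (0.937) and GTSF1 (0.918), the last also of the piRNA pathway and, like the PAGE members, present in H1299 Mock (32.2 FPKM) and at 0.168 FPKM or less in the other Mock libraries. For CTAG1B and CTAG2 they were CSAG1 (0.945), MAGEA12 (0.931) and MAGEA2B (0.914), all from the same stretch of the X chromosome. Each r rests largely on the difference between silent and expressing libraries.

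Genes of promoter silencing and factors of the CTAG promoters were looked at beside the members. DNMT1, the maintenance methyltransferase that DAC traps, was 14.2 to 33.0 FPKM in Mock and 11.3 to 35.8 after DAC (log2 difference 0.09 ± 0.13 SE over the 5 lines, adjusted p of 0.785 by limma). DNMT3B, a de novo methyltransferase, was higher after DAC in all 6 lines, from 5.83 to 8.41 FPKM at the median, with a log2 difference of 0.98 ± 0.16 and an adjusted p of 0.110. CTCFL, also called BORIS and itself a cancer-testis gene proposed as an activator of NY-ESO-1, was 0 to 0.568 FPKM in Mock and 0.233 to 3.30 after DAC, with 3.31 ± 0.44 and an adjusted p of 0.0716. The log2 difference over the 5 lines was 0.14 ± 0.18 (SE) for DNMT3A, 0.39 ± 0.18 for UHRF1, −0.24 ± 0.12 for HDAC1 and −0.02 ± 0.20 for SP1. Of the 7 genes of this list none passed the threshold in limma's test, and 2 were higher at an unadjusted p of 0.05.

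Whether the member promoters opened was asked with the broad peaks, which were called in each library separately. A promoter peak is one that overlaps 3000 bp on either side of the GENCODE start. In Mock, 2 of 32 combinations of member and library had such a peak, both at CTAG2, and after DAC 7 of 32 had one. Of all 35251 genes placed, 19055 (H1299) to 21900 (library labelled CL1-5) had one in Mock. After DAC 20596 (H1299) to 22815 (library labelled PC9) did. In every library the share of members with a promoter peak was below that of all genes. SSX2, SSX4, PAGE2B and CTAG1B had none in any library, and at SSX2 the nearest peak was 54494 to 213659 bp from the start.

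At SSX1, a peak at chrX:48114520-48114805 in the A549 DAC library ended 22 bp before the start and lay over most of the bases printed above, at 7.52-fold enrichment and a −log10 q of 12.01. The DAC library labelled PC9 had one at chrX:48114554-48114759 (4.39-fold, −log10 q of 4.09). At PAGE2, the A549 DAC library had a peak from 100 bp before to 245 bp after the start (4.82-fold, −log10 q of 4.78). At PAGE5, peaks over or within 91 bp of the start were called after DAC in A549 (3.63-fold), H1299 (2.87-fold) and the library labelled PC9 (2.89-fold). No Mock library had a peak at any of these 3 genes, the nearest being 58824 bp away.

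CTAG2 had a peak 28 to 236 bp after the start in the Mock library labelled PC9 (3.39-fold, −log10 q of 1.83) and none within 3000 bp in its DAC library. The library labelled CL1-5 had one about 2 kb upstream in Mock (from −2661 to −2124 bp of the start) and after DAC (from −2657 to −1892 bp). A549 and H1299 had none, although H1299 had the highest CTAG2 mRNA.

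Of members without a Mock peak, 3 of 8 gained one in A549, 1 of 8 in H1299, 2 of 7 in the library labelled PC9 and 0 of 7 in the library labelled CL1-5. The shares of all genes without a Mock peak that gained one were 17.9% in A549, 15.4% in H1299, 18.6% in the library labelled PC9 and 17.0% in the library labelled CL1-5, so the members' shares in H1299 and in the library labelled CL1-5 were below this background, and the larger shares in A549 and in the library labelled PC9 rest on 3 and 2 genes. DAC libraries also had more peaks than their Mock partners in every line (78199 against 58734 in A549). With equal numbers of peaks in Mock and DAC, 4 of 32 combinations had one after DAC, 3 of them in A549. With the labels CL1-5 and PC9 exchanged, the counts per line change places and the total stays at 7.

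mRNA and peaks thus did not match line by line. H1299, with the highest mRNA of all 6 SSX and PAGE members after DAC, had a promoter peak at PAGE5 only, at a −log10 q of 1.32. SSX2 and SSX4 had 967 and 338 reads in A549 after DAC and no promoter peak there. A peak that is not called is no measure of closed chromatin at this depth, and how reads at near-identical promoters were placed was not tested.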

How the data were processed

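The 8 members and all gene lists were chosen with earlier results of these data known. mRNA values are FPKM, which the authors computed with DESeq2 1.24.0 from read counts per GENCODE gene on hg19. The methods name RSEM with bowtie2, the submitters' processing notes TopHat2 2.1.1. Deposited normalised mean counts per gene (a signal over all libraries) gave back whole reads for 100.0% of values within 0.01 read. The table's columns of fold changes and p-values were not used. Omni-ATAC-seq peaks were called by the authors per library with MACS2 2.2.5 on BWA 0.7.17-r1188 alignments, and the deposited fold enrichment (a ratio to background) and −log10 q-value were used as given. No peak ran past a GRCh37 chromosome end.

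Genes were tested with limma 3.58.1 (R 4.3.3) on log2(FPKM + 0.1), mean FPKM of at least 0.1, with cell line as a block, Benjamini-Hochberg adjustment and a threshold of 0.05, two-sided. H1792 was left out of this test, as in the study's 5-line comparison. Same-line libraries deviated together (correlation 0.731 to 0.901, other lines −0.352 to 0.115), so the block follows the shared parental culture. The fit was first tested on simulated data with known changes. With 1 library per line and treatment, p-values measure the spread between lines. Members were part of this fit, and since they were chosen on it their calls are a description. Intervals are 95% Poisson or binomial and cover counting error only. Named beside the members were all other SSX, PAGE and CTAG rows, the 3 genes of the GAGE and XAGE and of the X-linked lists with the largest mean difference, the 3 most alike genes per family, and the silencing, marker and identity lists. One gene of the identity list is not reported here.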

Additional observations from a re-analysis of the deposited data

Results flagged for a closer look

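In 8 of 23 groups of 6 lines, 1 line lay far from the other 5 by Dixon's criterion, and 6 of the 8 were H1299 high. Many of the levels are at or near 0 and the members vary together, so no chance rate can be set beside this count. The criterion served only to pick values for a closer look. The H1299 levels were 0.296 FPKM for SSX2 in Mock, 12.6 for PAGE2, 16.97 for PAGE2B and 5.46 for PAGE5 in Mock, and 110.7 for PAGE2 and 152.4 for PAGE2B after DAC. The log2 difference of PAGE2B was lowest in H1299, at 3.16, and that of SSX2 was lowest in PC9, at 2.46. The H1299 libraries are also the ones with the deepest sequencing and mostly even read numbers, and the part of this in the levels was not tested.

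CTAG2 moved in opposite directions in different lines, with a log2 difference of −0.62 in CL1-0 and 7.53 in A549. Each line has 1 library per treatment, so the difference between lines was not tested.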

How the results depend on the processing

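The count of genes called (27) was 0 with a pseudocount of 1, 2 without the filter on low values, 53 with H1792, 10 with no replicate block, 199 with limma voom on the recovered reads, and 0 to 23 with a line left out (0 without A549 or CL1-5). Members among those called fell from 6 to 0 with a pseudocount of 1, without the filter and without A549, CL1-0 or CL1-5. Other X-linked cancer-testis genes called (1) numbered 0 with a pseudocount of 1 or without the filter, 3 with a pseudocount of 0.01 or a mean of at least 1 FPKM, 4 with H1792, 9 with voom and 0 to 1 with a line left out. Member promoter peaks after DAC (7) were 4 at a q under 0.01, 4 with equal numbers of peaks and 4 to 6 with a line left out, 4 being the count without A549. In Mock (2) they were 1 with a window of 1000 bp, 0 at a q under 0.01 and 1 to 2 with a line left out.

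With pseudocounts of 1 and 0.01 the mean log2 difference over 6 lines was 3.06 and 7.76 for SSX1, 3.21 and 8.10 for SSX4, 3.46 and 8.41 for PAGE2, 3.91 and 8.06 for PAGE2B, and 3.23 and 7.95 for PAGE5. It was 3.85 for SSX2 with a pseudocount of 1. CTAG1B went from 0.65 to 0.058 and 1.997 with these pseudocounts and to 2.40 with CTAG1A added, CTAG2 from 2.42 to 1.33 and 3.52, and PAGE2 held 42.1% of its pair by FPKM. The cause was not tested, beyond the pseudocount setting the value given to 0 reads. The summed copies, the share by FPKM, the exchanged labels and member differences without H1299 were chosen after seeing the data. With a line left out, silent counts (36) were 28 to 34 and induced counts (33) were 26 to 32. Each line holds only 8 member values, so leaving 1 out could not move these counts far. Silent counts were 24 with a floor of 0 reads, 38 with 10 reads and 34 with 0.1 FPKM. Induced counts were 31 to 34 under the other limits after DAC. No alternative reversed a direction. 1 library per line and treatment and the sharing of reads between copies limit every value.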
